A study of Sus scrofa with 8 samples.

Results

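The early response genes MYC, EGR1, EGR2, EGR3, IER2, NR4A2 and NR4A3 held 45 of the 114950 open chromatin regions that lay within 50 kb of a gene end in porcine muscle satellite cells. The regions were made by merging all ATAC-seq peaks of 8 libraries that overlapped by at least 1 bp. A region was assigned to the nearest end of a protein-coding gene in the RefSeq table of the Sscrofa11.1 assembly. MYC had 12 regions, NR4A3 had 8, NR4A2 had 7, IER2 had 6, EGR2 had 5, EGR1 had 4 and EGR3 had 3. NR4A1, the eighth gene sought, is listed in that table as a pseudogene on chromosome 5 from 17403088 to 17407918, so it received 0 regions under this rule.

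Early response genes are transcribed within minutes of a growth factor, stress or calcium signal, without new protein synthesis, mainly through SRF with its ELK partners and through CREB with the acetyltransferases CBP and EP300. MYC encodes a basic helix-loop-helix factor that pairs with MAX and drives growth and proliferation, and it is normally reduced when myoblasts leave the cell cycle. EGR1, EGR2 and EGR3 encode related zinc finger factors that are held back by the corepressors NAB1 and NAB2. IER2 encodes a small nuclear early response protein. NR4A1, NR4A2 and NR4A3 encode orphan nuclear receptors, and NR4A1 and NR4A3 are known in skeletal muscle for control of metabolic genes.

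The cells, satellite cells, are the stem cells that lie beside the fibres of skeletal muscle. The libraries fall into 4 groups of 2, which are CBP at 60 h, WT at 60 h, CBP at 0 h and WT at 0 h, where 60 h is labelled differentiation and 0 h proliferation. The protocol given for all samples names SGC-CBP30, an inhibitor of the bromodomains of CBP and EP300, at 5 uM/ml, with a proliferation period of 48 h and a differentiation period of 60 h. The labels carry the group names as genotypes and do not say which groups received the compound, so CBP and WT are used here as labels only. The labels also give the cell line as C3H, while the organism and the coordinates are pig. They do not say whether the 2 libraries of a group came from separate cultures or animals, so the p-values rest on the spread among these 8 libraries alone, and that spread may be technical.

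The peak lists held 88871 and 87977 peaks in CBP 60 h, 86282 and 82696 in WT 60 h, 135528 and 121757 in CBP 0 h, and 127394 and 134181 in WT 0 h (chromosomes 1 to 18 and X). The relative depth, recovered from the peak values with the shallowest library at 1, was 1.0 to 1.21 at 60 h and 1.43 to 2.08 at 0 h. Depth was thus lower in every 60 h library than in every 0 h library. Each count below is also given for equal numbers of peaks, which are the 82696 strongest of each library, and for peaks scaled to the depth of the shallowest library, an alternative chosen after seeing the data. Of 10 satellite cell and myoblast markers, 8 had a called region within 1 kb of an end in every library, with none at ITGA7 and CALCR. The same count was 5 of 7 fibroblast markers at 60 h and 5 to 6 at 0 h, 2 to 3 of 6 endothelial markers at 60 h and 3 at 0 h, 3 to 4 of 6 immune markers at 60 h and 4 to 5 at 0 h, and 2 of 5 neural markers at both times. Open chromatin at a marker does not measure its expression, and the part of other cell types in the results was not tested.

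A larger share of the early gene regions than of all linked regions was called in each of the 8 libraries. They were called at 26 and 25 of 45 in CBP 60 h and at 26 and 32 in WT 60 h, against 35 and 34 in CBP 0 h and 33 and 35 in WT 0 h. These shares were 55.6% to 71.1% at 60 h and 73.3% to 77.8% at 0 h, while all linked regions were called at 46.2% to 48.4% at 60 h and 65.6% to 74.7% at 0 h. With equal numbers of peaks, the difference between the times was no longer seen, with 25 and 24 regions called in CBP 60 h, 26 and 32 in WT 60 h, 24 and 28 in CBP 0 h, and 27 and 26 in WT 0 h. With peaks scaled to the shallowest depth it remained, with 26 and 25 in CBP 60 h, 26 and 32 in WT 60 h, 35 and 34 in CBP 0 h, and 32 and 34 in WT 0 h. The shares of all linked regions followed a similar course. With equal numbers they were 45.3% to 46.6% at 60 h and 47.0% to 48.1% at 0 h. Scaled to the shallowest depth they were 46.2% to 48.4% at 60 h and 65.2% to 71.4% at 0 h. The WT 60 h replicate 2 library stood highest of the 8 in member regions called under equal numbers. In bulk libraries, fewer cells with an open region and less openness per cell cannot be told apart.

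Constant regions made up a large part of the set. Of the 45, 19 (42.2%) were called in all 8 libraries, against 31.8% of all linked regions, and 8 (17.8%) were called in 1 library, against 21.4%. Within 1 kb of a gene end lay 11 regions (24.4%), against 16.6% of all linked regions, and 8 of these 11 (72.7%) were called in all 8 libraries, against 65.8% of linked regions at that distance. Of the 34 farther out, 11 (32.4%) were called in all 8, against 25.1%. Members and linked regions in general had similar widths, with medians of 666 bp and 673 bp. In total 33 of the 45 neither opened nor closed in any comparison made below. These include the 8 called in 1 library, which cannot open or close as defined below, since every library of a group must call the region. The same share of all linked regions was not counted, so 33 of 45 is a description only. Regions are numbered within a gene from the lowest to the highest coordinate. The table used here gives no strand, so gene ends are named by coordinate.

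**Figure D1:**
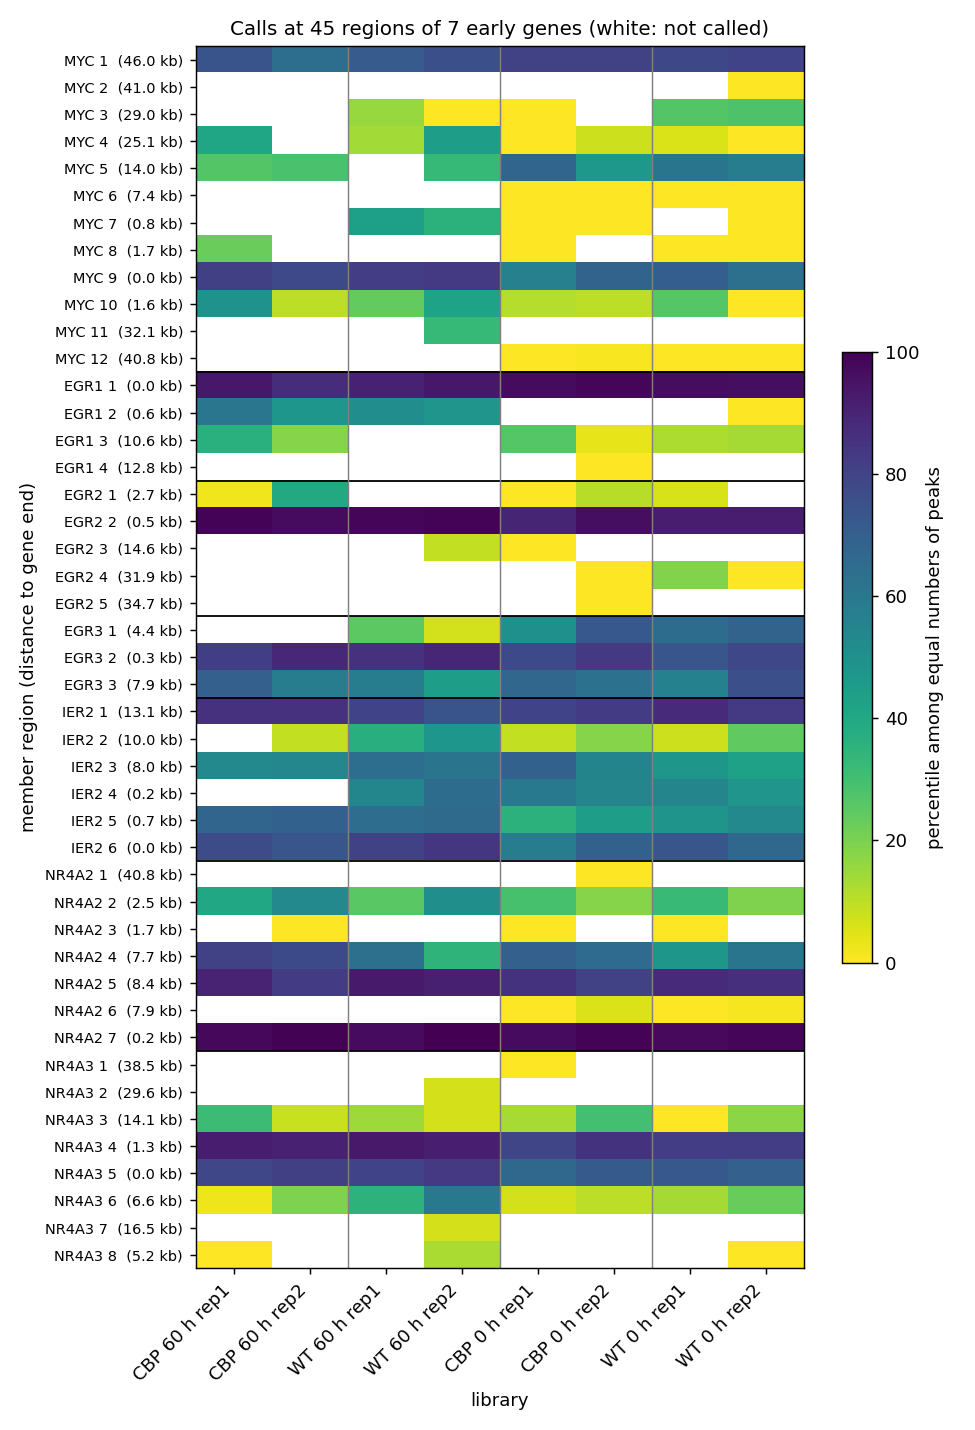
Each row is 1 of the 45 regions, with its distance to the gene end in kb, and each column is 1 library. Colour gives the percentile of the region's strongest peak among equal numbers of peaks, white marks no peak, and yellow at 0 marks a peak outside the equal-number list. NR4A2 7, EGR2 2 and EGR1 1 are dark in every library, while IER2 4 and EGR3 1 are white only in the 2 CBP 60 h libraries.

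MYC, on chromosome 4 from 12455141 to 12460360, had the largest number of regions of the 7 genes and the largest nominal difference between the times. It was called at 6 and 4 of its 12 regions in CBP 60 h and at 6 and 8 in WT 60 h, against 10 and 8 in CBP 0 h and 9 and 11 in WT 0 h. The groups of 4 libraries met at 8 regions. With equal numbers the counts were 6 and 4 in CBP 60 h and 6 and 8 in WT 60 h, against 4 and 6 in CBP 0 h and 6 and 5 in WT 0 h, so the times overlapped fully. Only MYC 1, MYC 9 and MYC 10 were called in all 8 libraries.

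MYC 9 (chr4:12459228-12461604) covered the higher end of the gene. Its percentile, where 100 is the strongest of the equal numbers of peaks, was 80.9 and 77.9 in CBP 60 h and 81.7 and 83.2 in WT 60 h, against 56.6 and 68.2 in CBP 0 h and 70.1 and 63.0 in WT 0 h. All 4 libraries at 60 h stood above all 4 at 0 h. MYC 1 (chr4:12406877-12409107), the strongest MYC region by median percentile at 76.8, lay 46034 bp outside the lower end and did the opposite. Its percentile was 73.9 and 63.8 in CBP 60 h and 71.2 and 75.4 in WT 60 h, against 80.5 and 80.2 in CBP 0 h and 78.3 and 79.7 in WT 0 h. Thus the distal region ranked lower in every 60 h library than in any 0 h library, and the region at the gene end ranked higher.

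Weak regions accounted for most of the MYC calls that differed. MYC 6 (chr4:12447393-12447727) and MYC 12 (chr4:12501197-12501828) were called in 0 of 4 libraries at 60 h and in 4 of 4 at 0 h. The authors' peak caller gave MYC 6 a −log10 q of 3.38 to 5.44 and MYC 12 one of 2.82 to 7.08, and under equal numbers MYC 6 was lost in all 4 libraries at 0 h and MYC 12 in 3 of them. MYC 7 (chr4:12453506-12454384) lay 757 bp from the lower end. It was called in neither CBP 60 h library and in both WT 60 h libraries, and in both CBP 0 h libraries and 1 WT 0 h library. MYC 3 (chr4:12425574-12426184) was called in neither CBP 60 h library, both WT 60 h libraries, 1 CBP 0 h library and both WT 0 h libraries. MYC 8 (chr4:12457807-12458617), inside the gene, was called in CBP 60 h replicate 1 at 60 h and in CBP replicate 1 and both WT libraries at 0 h, with a −log10 q of 3.56 to 4.78. MYC 4 and MYC 5 were each called in 7 libraries, and MYC 2 and MYC 11 in 1 each.

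**Figure D2:**
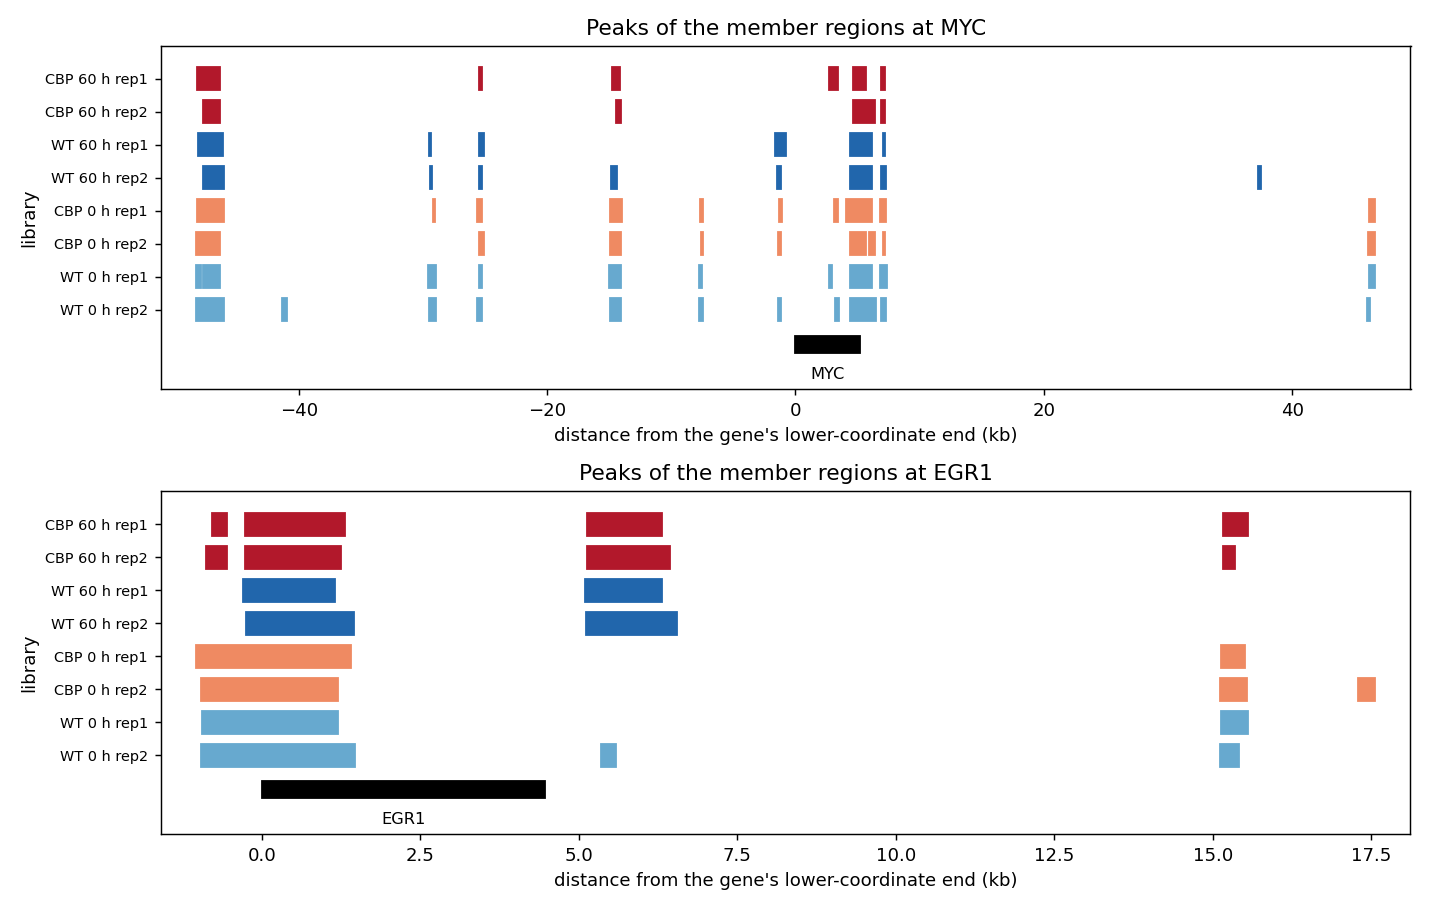
Horizontal bars are the peaks of each library at the MYC regions (top) and EGR1 regions (bottom), drawn to scale in kb from the end of the gene at the lower coordinate, with the gene in black. At EGR1 the block just past the higher end is present in all 4 libraries at 60 h and in 1 library at 0 h, and at MYC the weak bars near −7 kb and past 45 kb are present at 0 h only.

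EGR1, on chromosome 2 from 140440829 to 140445302, is an early zinc finger factor for growth signals. It was called at 3 and 3 of its 4 regions in CBP 60 h and 2 and 2 in WT 60 h, against 2 and 3 in CBP 0 h and 2 and 3 in WT 0 h. EGR1 1 (chr2:140439792-140442294) covered the lower end and was called in all 8 libraries. EGR1 2 (chr2:140445922-140447386) lay 620 bp past the higher end and was called in all 4 libraries at 60 h, against 1 of 4 at 0 h, WT replicate 2. Its percentile was 60.9 and 47.4 in CBP 60 h and 51.1 and 47.8 in WT 60 h, and the peak of the single library at 0 h, with a −log10 q of 4.07, was outside the equal-number list. The region was thus called in the shallower libraries and missing from 3 of the deeper ones. EGR1 3 (chr2:140455949-140456384), 10647 bp past the same end, was called in both CBP 60 h libraries, neither WT 60 h library and all 4 libraries at 0 h. EGR1 4 was called in CBP 0 h replicate 2 alone.

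The peaks at the lower end of EGR1 had a percentile of 93.4 and 87.2 in CBP 60 h and 90.8 and 93.4 in WT 60 h, against 97.1 and 98.3 in CBP 0 h and 96.6 and 96.1 in WT 0 h. All 4 libraries at 60 h stood below all 4 at 0 h by rank. The summit pileup over the library's own floor, a second measure of strength on the log2 scale, gave the other direction. It was 6.01 and 6.02 in CBP 60 h and 6.12 and 6.20 in WT 60 h, against 5.64 and 5.88 in CBP 0 h and 5.78 and 5.64 in WT 0 h. No direction can therefore be given for this region.

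EGR2, on chromosome 14 from 66280665 to 66291308, is known for myelination by Schwann cells as well as for early responses. It was called at 2 and 2 of 5 regions in CBP 60 h and 1 and 2 in WT 60 h, against 3 and 4 in CBP 0 h and 3 and 2 in WT 0 h. EGR2 2 (chr14:66288771-66290852), inside the gene and 456 bp from its higher end, was among the strongest peaks of every library. Its percentile was 99.2 and 97.1 in CBP 60 h and 98.6 and 99.2 in WT 60 h, against 89.5 and 96.2 in CBP 0 h and 92.2 and 92.2 in WT 0 h, so the times did not overlap. The summits of its 8 peaks fell within 10 bp of each other. EGR2 1 (chr14:66288080-66288646), inside the gene next to it, was called in both CBP 60 h libraries, neither WT 60 h library, both CBP 0 h libraries and 1 WT 0 h library. EGR2 4 (chr14:66323239-66323732) was called in CBP replicate 2 and both WT libraries at 0 h and in no library at 60 h, EGR2 3 in 2 libraries and EGR2 5 in 1.

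EGR3, on chromosome 14 from 6943184 to 6948507, is needed for muscle spindle development in the mouse. It was called at 2 and 2 of 3 regions in CBP 60 h, against 3 of 3 in each of the 6 other libraries. EGR3 1 (chr14:6937888-6938783), 4401 bp below the lower end, was the missing one. Its −log10 q was 5.71 and 2.60 in WT 60 h, 20.8 and 27.0 in CBP 0 h, and 25.4 and 29.2 in WT 0 h, with no peak in CBP 60 h. By percentile, a rank in lists of equal length, it stood at 25.1 and 6.68 in WT 60 h. It stood at 49.7 and 72.5 in CBP 0 h, and at 64.7 and 68.0 in WT 0 h. The region was therefore weak in WT 60 h as well as not called in CBP 60 h. EGR3 2 (chr14:6948764-6951382), 257 bp past the higher end, and EGR3 3 were called in all 8 libraries, and EGR3 2 had a median percentile of 82.3.

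IER2, on chromosome 2 from 65909638 to 65912491, was called at 4 and 5 of 6 regions in CBP 60 h, against 6 of 6 in each of the 6 other libraries, also with equal numbers. IER2 4 (chr2:65909884-65910249), inside the gene and 246 bp from its lower end, was called in neither CBP 60 h library. Its percentile was 54.0 and 64.5 in WT 60 h, 59.4 and 54.3 in CBP 0 h, and 54.6 and 47.9 in WT 0 h, so it was a peak of middle rank in all 6 libraries that held it. The neighbouring IER2 5 (chr2:65910394-65911807) was called in both CBP 60 h libraries. Its percentile was 67.5 and 69.0 in CBP 60 h and 64.2 and 65.5 in WT 60 h, against 35.9 and 44.3 in CBP 0 h and 48.4 and 52.8 in WT 0 h. All 4 libraries at 60 h again stood above all 4 at 0 h. IER2 2 was also not called in CBP 60 h replicate 1, and IER2 1 and IER2 3 were called in all 8. IER2 6 (chr2:65912008-65913337), which covered the higher end, was also called in all 8. Its percentile was 76.8 and 73.3 in CBP 60 h and 80.8 and 84.3 in WT 60 h, against 58.0 and 68.8 in CBP 0 h and 73.3 and 66.1 in WT 0 h.

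NR4A2, on chromosome 15 from 63487051 to 63506249, is an orphan receptor known for dopamine neurons and called here at 4 and 5 of 7 regions in CBP 60 h and 4 and 4 in WT 60 h, against 6 and 6 in CBP 0 h and 6 and 5 in WT 0 h. NR4A2 7 (chr15:63504070-63506032), inside the gene and 217 bp from its higher end, was the strongest region of all 45 by median percentile, at 98.2. Its percentile was 97.8 and 99.6 in CBP 60 h and 97.0 and 99.7 in WT 60 h, against 96.9 and 99.1 in CBP 0 h and 97.3 and 98.6 in WT 0 h, and the times overlapped. NR4A2 6 (chr15:63498116-63498382), inside the gene, was called in 0 of 4 libraries at 60 h and in 4 of 4 at 0 h, where its −log10 q was 4.28 to 8.86, and 2 of the 4 calls remained with equal numbers. NR4A2 2, NR4A2 4 and NR4A2 5 were called in all 8 libraries, NR4A2 3 in 3 and NR4A2 1 in 1.

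NR4A3, on chromosome 1 from 241569867 to 241611735, was the only gene of the 7 with a higher mean share of regions called at 60 h in the lists as deposited. With equal numbers NR4A3 and EGR1 were each 12.5 percentage points higher at 60 h and MYC 6.25. It was called at 5 and 4 of 8 regions in CBP 60 h and 4 and 7 in WT 60 h, against 5 and 4 in CBP 0 h and 4 and 5 in WT 0 h. The count of 7 in WT 60 h replicate 2 made this difference, and without that library it turned to −2.08 percentage points. NR4A3 4 (chr1:241567290-241568566), 1301 bp below the lower end, had a percentile of 92.0 and 90.7 in CBP 60 h and 93.1 and 91.6 in WT 60 h, against 79.2 and 85.2 in CBP 0 h and 81.8 and 81.7 in WT 0 h. NR4A3 5 (chr1:241568875-241571251), which covered the lower end, had 78.7 and 81.2 in CBP 60 h and 79.7 and 83.5 in WT 60 h, against 66.4 and 71.8 in CBP 0 h and 72.5 and 69.3 in WT 0 h. At both regions all 4 libraries at 60 h stood above all 4 at 0 h. NR4A3 3 and NR4A3 6 were called in all 8 libraries, NR4A3 8 in 3, and NR4A3 1, NR4A3 2 and NR4A3 7 in 1 each.

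The first comparison asked how calls differed between differentiation at 60 h and proliferation at 0 h. A region was counted as opened where every library of the first group called it and none of the second did, and as closed in the reverse case. These are counts with no test, since 2 libraries against 2 cannot give an exact permutation p below 0.333. In CBP cells, 1 of 45 regions opened (EGR1 2), a share of 2.22% against 1.36% of all linked regions, and 6 closed, a share of 13.3% against 14.5%. The 6 were IER2 4, MYC 6, MYC 7, MYC 12, EGR3 1 and NR4A2 6. In WT cells, 0 opened, against 0.575% of all linked regions, and 6 closed, a share of 13.3% against 14.3%. Those 6 were EGR1 3, MYC 6, MYC 8, MYC 12, EGR2 4 and NR4A2 6. The shares closed were near those of all linked regions in both. Leaving out CBP 60 h replicate 2 gave 2 opened in CBP, and leaving out CBP 0 h replicate 1 gave 10 closed. In WT, 4 opened without WT 60 h replicate 1 and 2 without WT 0 h replicate 2.

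Over all 8 libraries, 0 regions opened between the times, against 0.109% of linked regions, and 3 closed (6.67%), against 5.47%. The 3 were MYC 6, MYC 12 and NR4A2 6. With equal numbers of peaks none of these 3 closed over all 8 libraries, against 1.27% of linked regions, and EGR1 2 opened, against 0.687%. The equal-number counts were 1 opened and 2 closed in CBP, against 3.64% and 5.57% of linked regions, and 2 opened and 1 closed in WT, against 2.62% and 3.89%. EGR1 2 was thus the single region opened over all 8 libraries with equal numbers, where the weak peak of WT 0 h replicate 2 dropped out, and 1 region also opened in the lists as deposited without that library. With peaks scaled to the depth of the shallowest library, the member counts were the same as in the lists as deposited. All linked regions then opened at 1.48% and closed at 13.9% in CBP, opened at 0.662% and closed at 13.0% in WT, and opened at 0.124% and closed at 5.06% over all 8 libraries.

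**Figure D3:**
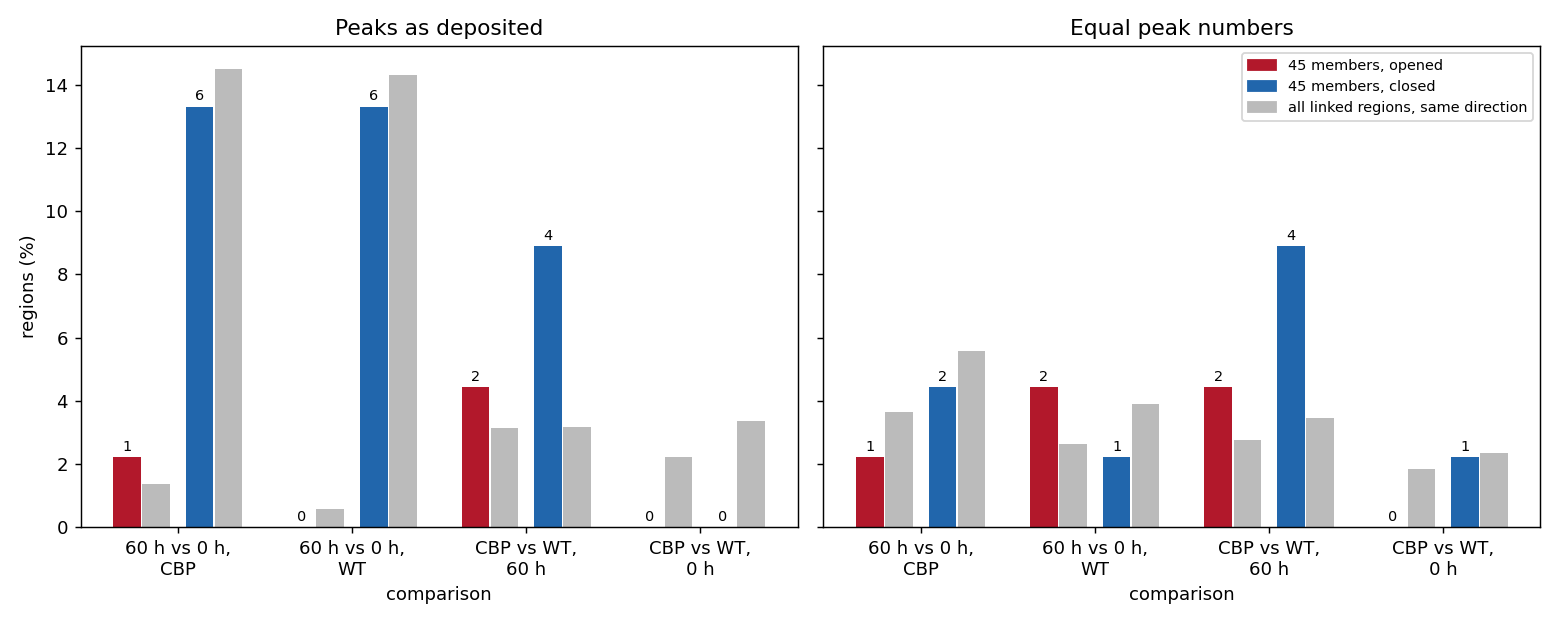
Bars give the share, in percent, of the 45 early gene regions that opened (red) or closed (blue) and of all 114950 linked regions in the same direction (grey), for the lists as deposited and for equal numbers of peaks, with the count of regions on each bar. Closed shares between the times stand near the grey bars at 13.3% and fall with equal numbers, and the 4 regions closed in CBP against WT at 60 h stand at 8.89% in both panels.

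The share of a gene's regions that was called was tested for each gene by an exact permutation of the 8 libraries between the times, 70 arrangements, 2-sided, with Benjamini-Hochberg adjustment over 17522 genes. MYC stood at 50% ± 13.6 at 60 h, against 79.2% ± 10.8 at 0 h (SD, n = 4 each), a difference of −29.2 percentage points (exact p = 0.0571, adjusted p = 0.178). NR4A2 stood at 60.7% ± 7.14 at 60 h, against 82.1% ± 7.14 at 0 h, a difference of −21.4 points (exact p = 0.0571, adjusted p = 0.178). EGR2 stood at 35% ± 10.0 at 60 h, against 60.0% ± 16.3 at 0 h, a difference of −25.0 points (exact p = 0.114, adjusted p = 0.267). The differences were −16.7 points for EGR3, −12.5 for IER2, 0.0 for EGR1 and 6.25 for NR4A3, with exact permutation p of 0.429 or more.

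None of these passed at 0.05, and 0 of the 17522 genes did, the smallest adjusted p being 0.106. The smallest exact p that the 8 libraries allow, 0.0286, was reached by 4727 genes (27.0%) and by no early gene. The median difference was −16.7 points over the 7 genes, against −21.9 over all genes. With equal numbers of peaks both medians were 0.0. MYC then turned to 6.25 points (exact permutation p = 0.657), EGR2 stood at 0.0 and NR4A2 at −7.14. With peaks scaled to the shallowest depth, the differences stayed close to those as deposited, at −27.1 points for MYC (exact permutation p = 0.0571), −25.0 for EGR2 and −17.9 for NR4A2, with medians of −16.7 over the 7 genes and −18.8 over all genes. EGR3 and IER2 kept −16.7 and −12.5 points, set by the CBP 60 h libraries.

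**Figure D4:**
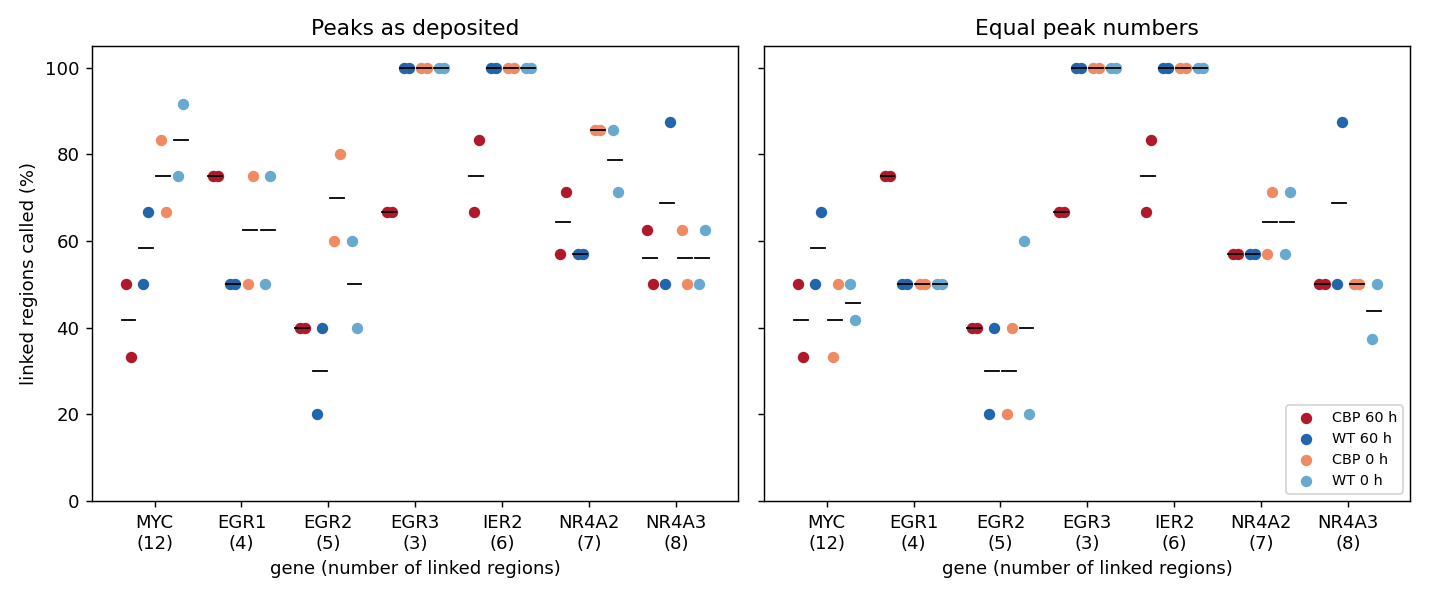
Points give, for each library, the percent of a gene's linked regions that was called, by gene and group, with a line at the mean of each group of 2 libraries. In the lists as deposited (left) MYC, EGR2 and NR4A2 sit lower at 60 h by mean, though in each the times meet at a shared value. With equal numbers (right) the times overlap for MYC, EGR2 and NR4A2. EGR3 and IER2 are below 100% only in CBP 60 h.

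Peak strength was compared at the 19 regions called in all 8 libraries, by rank in lists of equal length. NR4A3 3 was outside the equal-number list in WT 0 h replicate 1 and entered there as 0. At 7 of the 19, the 4 libraries at 60 h and the 4 at 0 h did not overlap, against 23.4% of the 36600 linked regions called in all 8 libraries. IER2 5 had the largest of the 7 differences, at 66.5 ± 2.14 at 60 h, against 45.4 ± 7.19 at 0 h (percentile, SD, n = 4 each), a difference of 21.2. MYC 9 stood at 80.9 ± 2.21 at 60 h, against 64.4 ± 6.05 at 0 h, a difference of 16.5. NR4A3 5 differed by 10.8, NR4A3 4 by 9.89 and EGR2 2 by 6.01, all higher at 60 h. MYC 1 stood at 71.1 ± 5.12 at 60 h, against 79.7 ± 0.992 at 0 h, a difference of −8.58, and EGR1 1 differed by −5.81.

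Each of the 7 reached the smallest exact permutation p, 0.0286, with an adjusted p of 0.122 over all 36600 regions, and none passed. In all, 15 of the 19 ranked higher at 60 h and 4 lower, while 58.9% of all regions tested ranked higher, with a median of 1.68 percentile points. The higher count includes NR4A3 3, whose difference of 0.177 rests on the entry of 0. By summit pileup over the library floor, 11 of the 19 were higher at 60 h and 8 lower, and 6 of the 19 did not overlap, against 23.7% of all regions, with a median shift of −0.09 on the log2 scale over all regions, 39.9% of which were higher. IER2 5 and EGR2 2 were higher at 60 h by both measures, at 0.23 and 0.50 by pileup, and MYC 1 was lower by both, at −0.52. EGR1 1 reversed, at 0.36. MYC 9, NR4A3 4 and NR4A3 5 kept their direction, at 0.18, 0.26 and 0.10, but their libraries overlapped. The other 2 that did not overlap by pileup were IER2 1, at −0.35, and EGR3 3, at −0.48.

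**Figure D5:**
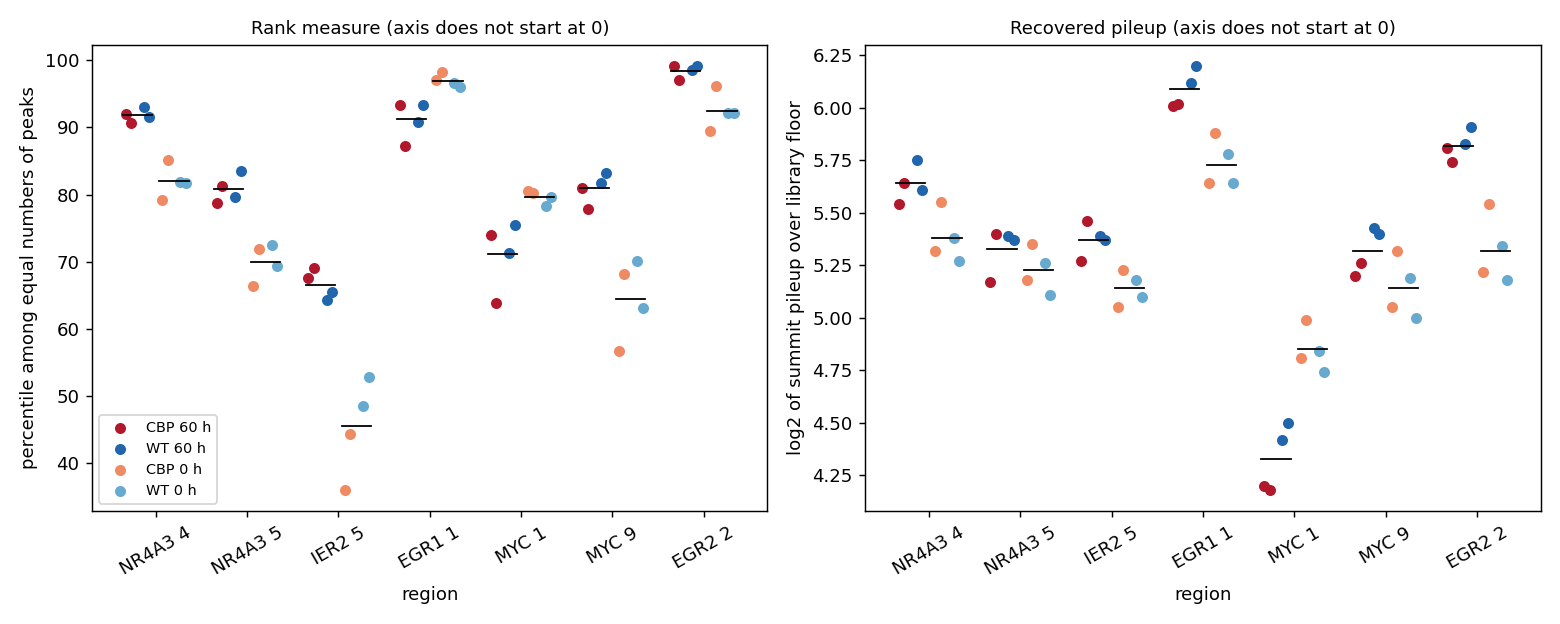
Each point is 1 library at the 7 regions whose percentile did not overlap between the times, with lines at the mean of the 4 libraries of a time; the left panel gives the percentile and the right the log2 of summit pileup over the library floor. IER2 5, MYC 9, EGR2 2 and both NR4A3 regions sit higher at 60 h in the left panel, MYC 1 sits lower in both panels, and EGR1 1 changes direction between them.

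The second comparison set CBP against WT. At 60 h, 2 of 45 regions opened in CBP (4.44%), against 3.14% of linked regions, and 4 closed (8.89%), against 3.17%. The regions called in both CBP and neither WT library were EGR1 3 and EGR2 1. Those called in neither CBP and both WT libraries were MYC 3, MYC 7, IER2 4 and EGR3 1. With equal numbers of peaks the counts were again 2 opened, against 2.77% of linked regions, and 4 closed, against 3.45%. A −log10 q of at least 5 left 0 opened, and 50% cover of a region or links within 10 kb left 1. Relative depth at 60 h was 1.21 and 1.08 in CBP and 1.11 and 1.0 in WT. The weakest of the peaks behind these calls had a −log10 q of 1.62, at MYC 3, and those at IER2 4 had 10.8 and 12.1. Leaving out WT 60 h replicate 1 raised the count closed to 8.

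At 0 h, 0 regions opened, against 2.23% of linked regions, and 0 closed, against 3.35%. With equal numbers 0 opened, against 1.85%, and 1 closed, against 2.35%, which was MYC 3. Over all 8 libraries 0 opened, against 0.142%, and 0 closed, against 0.231%, in the lists as deposited. With equal numbers 0 opened, against 0.197%, and 1 closed, against 0.374%, again MYC 3. The 6 regions that differed between CBP and WT at 60 h therefore did not differ in this way at 0 h in the lists as deposited, and the difference between the times was not tested. Scaled to the depth of the shallowest library, the member counts between CBP and WT were again the same, while all linked regions opened at 3.13% and closed at 3.18% at 60 h, opened at 2.36% and closed at 3.1% at 0 h, and opened at 0.177% and closed at 0.243% over all 8 libraries. At 0 h, leaving out 1 library gave 1 to 3 opened, with 3 without CBP replicate 1, and 0 to 3 closed, with 3 without WT replicate 1. Over all 8 libraries, 1 opened without WT 0 h replicate 1 and 1 closed without CBP 0 h replicate 1.

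In shares of regions called, CBP and WT differed by −12.5 percentage points for MYC and for IER2, −16.7 for EGR3, −6.25 for NR4A3, 12.5 for EGR1, 15 for EGR2 and 7.14 for NR4A2. The exact permutation p within times, 36 arrangements, was 0.222 for MYC and larger for the others, and every adjusted p was 1. The smallest this test can give is 0.0556, so no gene could pass, and 0 of 17522 did. At 0 h alone the mean shares of EGR1, EGR3, IER2 and NR4A3 were equal in CBP and WT. Those of EGR2 were 70% in CBP and 50% in WT, those of NR4A2 85.7% in CBP and 78.6% in WT, and those of MYC 75.0% in CBP and 83.3% in WT.

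Of the 19 constant regions, 3 did not overlap between CBP and WT within either time and kept the same direction at both times. This held for 15.2% of all regions tested. Each of the 3 had an exact permutation p of 0.0556 and an adjusted p of 0.366. Regions that did not overlap but changed direction between the times, such as IER2 3, are not in this count. NR4A2 4 (chr15:63494739-63496193), inside the gene, had a percentile of 80.4 and 77.6 in CBP 60 h, against 62.9 and 35 in WT 60 h, and of 69.2 and 64.9 in CBP 0 h, against 47.0 and 61.0 in WT 0 h. The next region, NR4A2 5 (chr15:63496321-63497880), had 90.0 and 82.1 in CBP 60 h, against 92.6 and 91.1 in WT 60 h, and 85.5 and 80.4 in CBP 0 h, against 87.8 and 86.6 in WT 0 h. These neighbouring regions of NR4A2 thus stood in opposite directions by rank. NR4A3 6 had 2.52 and 19.4 in CBP 60 h, against 35.5 and 59.7 in WT 60 h, and 6.50 and 10.1 in CBP 0 h, against 13.3 and 23.1 in WT 0 h. By pileup NR4A2 4 alone did not overlap in the same direction at both times, at a difference of 0.35 on the log2 scale. This held for 14.9% of all regions. IER2 3 did not overlap by pileup within either time as well, but its directions were opposite.

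Other early response genes, among them the AP-1 subunits, the KLF factors and the DUSP phosphatases, had 392 regions at 39 genes. Between 60 h and 0 h, 9 of the 392 opened (2.3%) and 59 closed (15.1%) in CBP, against 1.36% and 14.5% of all linked regions. In WT 5 opened (1.28%) and 44 closed (11.2%), against 0.575% and 14.3%. TRIB1, a pseudokinase, had 7 of 15 regions closed in CBP, and PHLDA1 had 2 opened and 7 closed of 14. In WT, BTG2, an antiproliferative gene, had 2 opened and 4 closed of 13, and SGK1, a kinase, had 4 closed of 25. Over all 8 libraries 0 opened and 19 closed (4.85%), against 5.47% of all linked regions closed. With equal numbers the counts were 23 opened (5.87%) and 21 closed (5.36%) in CBP, against 3.64% and 5.57% of all linked regions. In WT they were 13 opened (3.32%) and 12 closed (3.06%), against 2.62% and 3.89%. Between CBP and WT, 14 opened (3.57%) and 13 closed (3.32%) at 60 h, against 3.14% and 3.17%. At 0 h, 8 opened (2.04%) and 11 closed (2.81%), against 2.23% and 3.35%. Their shares of regions called differed between the times by a median of −15 points, against −21.9 over all genes. At the smallest exact p stood 16 of the 39 genes, all lower at 60 h, against 27.0% of all genes, and 0 passed. With equal numbers the median was 0.0, with 17 genes higher, 14 lower and 1 at the smallest exact p, against 4.63% of all genes.

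Partners and corepressors of the members had 119 regions at 14 genes. Between the times in CBP, 2 opened (1.68%) and 11 closed (9.24%), against 1.36% and 14.5% of all linked regions. In WT 4 opened (3.36%) and 13 closed (10.9%), against 0.575% and 14.3%. MAX, the partner of MYC, had 2 of 7 regions closed in CBP, and RXRA, the retinoid receptor that pairs with NR4A1 and NR4A2, had 1 opened and 4 closed of 35. At 60 h, 3 opened (2.52%) and 3 closed (2.52%) between CBP and WT, against 3.14% and 3.17% of all linked regions. At 0 h, 2 opened (1.68%) and 7 closed (5.88%), against 2.23% and 3.35%. Upstream regulators had 135 regions at 15 genes. Between the times in CBP, 0 opened and 14 closed (10.4%), against 1.36% and 14.5% of all linked regions. In WT 1 opened (0.741%) and 18 closed (13.3%), against 0.575% and 14.3%. CREBBP, which encodes CBP, had 4 of 17 regions closed in CBP and 5 of 17 in WT, and ELK3, an SRF partner, had 3 and 4 of 22. Between CBP and WT, 3 opened (2.22%) and 6 closed (4.44%) at 60 h, against 3.14% and 3.17%. At 0 h, 1 opened (0.741%) and 5 closed (3.7%), against 2.23% and 3.35%. The median differences in share between the times were −16.0 points for partners and −16.7 for upstream regulators, against −21.9 over all genes. At the smallest exact p stood 3 of 14 and 5 of 15 genes, all lower at 60 h, against 27.0% of all genes. In either list 0 genes passed. With equal numbers the medians were 1.39 and 0.0. At the smallest exact p then stood 3 of 14 partners, 2 of them lower, and 0 of 15 upstream regulators. The share over all genes was 4.63%.

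The genes whose 8 shares of regions called came closest to those of the 45 pooled regions were VGLL3, with 20 regions and a mean absolute difference of 2.43 percentage points over the 8 libraries, ACVR1, with 20 regions and 2.64 points, and ZC3H3, with 13 regions and 2.88 points. They were taken from 9279 genes with at least 5 regions.

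The 50 kb limit cut the set at MYC above all. MYC 1, at 46034 bp, was the farthest region inside the limit and the nearest outside it lay at 50272 bp. Another 168 regions had MYC as their nearest gene but lay beyond 50 kb, and 44 of these were called in all 8 libraries. The numbers beyond 50 kb were 21 for NR4A2, 11 for EGR2, 11 for NR4A3 and 0 for EGR1, EGR3 and IER2.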

How the data were processed

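ATAC-seq was analysed from 8 peak lists, 1 per library, 2 libraries in each of 4 groups. Trimmomatic trimmed the reads and MACS2 2.1.0 called peaks on Sscrofa11.1, per the submitters' processing notes. The aligner, duplicate removal and the transposase shift, which would move peak edges and heights, were not given in the sources used here. The authors' deposited lists hold, for every peak of a library, a score, the fold (ratio) of the summit over its local background, and the −log10 of the p-value and of the q-value. The score was not used, and these values served to describe, rank or filter peaks within a list and to recover pileups.

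Peaks were merged at an overlap of 1 bp into 178498 regions, and regions within 50 kb of a protein-coding gene end were linked to it (114950). A library called a region where it had a peak in it. Strength was the percentile of the strongest peak among equal numbers of peaks, the 82696 with the highest −log10 q in each library. The lists hold no read totals. The summit pileup and background of each peak were solved from fold and p under the caller's formulas, which gave a whole pileup for 100.0% of peaks (tolerance 0.01 in −log10 p), and the most frequent background of a library was its floor and measure of relative depth. Exact permutation tests over libraries were 2-sided, with Benjamini-Hochberg adjustment over all genes or regions, and were tested on simulated data (Python 3.11.15, numpy 2.4.6, pandas 2.3.3, scipy 1.17.1).

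The alternatives were equal peak numbers, a −log10 q of at least 5, peaks covering 50% of a region, links within 10 kb, each library left out, pileup in place of rank, a replicate block, and 2 chosen after seeing the data, depth scaling and NR4A1 counted as a gene. The members and gene lists were chosen with earlier results of these data known. Every member is named. Regions given with coordinates are those at gene ends, those that opened or closed, and a few others whose ranks the results turn on. Up to 4 genes of each other list could be named per comparison, those with the most regions opened or closed, and a few of these are given. The genes most like the members are the 3 with the smallest mean difference in share. No pairing of libraries by replicate number was seen. Sequences and motifs were not analysed here.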

Additional observations from a re-analysis of the deposited data

Results flagged for a closer look

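NR4A1 is listed as a pseudogene in the gene table, so its regions are in no comparison above. Counted as a gene, an alternative chosen after seeing the data, it had 4 regions. The region at chr5:17408711-17409618, which lies 793 bp past the higher end, was called in 4 of 4 libraries at 60 h and in 0 of 4 at 0 h, also with equal numbers of peaks. Over all linked regions 0.109% opened in this way in the lists as deposited, and 0.687% with equal numbers. Its −log10 q was 3.93 and 4.22 in CBP 60 h and 5.70 and 2.77 in WT 60 h. Under the linking rule the region belonged to ATG101. A region 1976 bp below the lower end, chr5:17399255-17401112, was called in all 8 libraries. The linking rule gave it to LOC110260567.

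In the shares of regions called, 3 libraries stood apart from the other 3 of their time, of 52 groups of 4 examined. In each case the other 3 values were equal and the call of 1 region made the difference, so the usual chance rate of about 1 in 20 does not apply. They were WT 60 h replicate 1 at EGR2, with 20%, CBP 60 h replicate 2 at NR4A2, with 71.4%, and WT 0 h replicate 2 at NR4A2, with 71.4%.

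At 3 IER2 regions, percentile differences ran in opposite directions in every library, and these contrasts between groups were not tested. At IER2 1, CBP minus WT was 8.94 at 60 h and −4.01 at 0 h, and 60 h minus 0 h was 4.56 in CBP and −8.39 in WT. At IER2 3, CBP minus WT was −9.45 at 60 h and 17.2 at 0 h, and 60 h minus 0 h was −8.73 in CBP and 18 in WT. At IER2 5, CBP minus WT was 3.43 at 60 h and −10.5 at 0 h. By log2 pileup over the floor most of these reversals were not seen. IER2 1 was lower at 60 h in both labels, at 4.6 at 60 h against 4.90 at 0 h in CBP and 4.53 at 60 h against 4.92 at 0 h in WT. IER2 3 was also lower at 60 h in both, at 3.85 at 60 h against 4.45 at 0 h in CBP and 4.10 at 60 h against 4.15 at 0 h in WT. IER2 5 stood at 5.36 in CBP and 5.38 in WT at 60 h, and at 5.14 in both at 0 h. IER2 3 kept opposite signs between CBP and WT, at 3.85 in CBP and 4.10 in WT at 60 h and 4.45 in CBP and 4.15 in WT at 0 h. By mean IER2 1 kept them too, at 4.6 in CBP and 4.53 in WT at 60 h. At 0 h it stood at 4.90 in CBP and 4.92 in WT, and its libraries overlapped at both times.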

How the results depend on the processing

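Counts of regions opened or closed were small and moved with the settings; the causes were not tested. Between 60 h and 0 h in CBP, equal peak numbers gave 2 closed, counting NR4A1 gave 2 opened, and the lists without 1 library held 1 to 2 opened and 7 to 10 closed. In WT, equal numbers gave 2 opened and 1 closed, a −log10 q of at least 5 gave 1 opened, 50% cover 1 opened, NR4A1 1 opened, links within 10 kb 3 closed, and leaving out 1 library 0 to 4 opened. Over all 8 libraries between the times, equal numbers, the stricter q, 50% cover and NR4A1 each gave 1 opened, equal numbers and the stricter q 0 closed, and leaving out 1 library 0 to 1 opened. For CBP against WT at 60 h, the stricter q gave 0 opened, 50% cover and 10 kb 1 opened each, and leaving out 1 library 4 to 8 closed. At 0 h, 50% cover gave 1 opened, equal numbers, the stricter q and 50% cover 1 closed each, and leaving out 1 library 1 to 3 opened and 0 to 3 closed. Over all 8 libraries, 50% cover gave 1 opened, equal numbers 1 closed, and leaving out 1 library 0 to 1 of each.

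Directions reversed for the MYC share between the times (6.25 points with equal numbers), the NR4A3 share (−15.6 with the stricter q, −12.5 with 50% cover, −2.08 to 10.4 leaving out 1 library), the EGR1 share between CBP and WT (−12.5 within 10 kb), the NR4A3 share between CBP and WT (−15.6 to 3.12 leaving out 1 library) and EGR1 1 (0.36 on the log2 scale by pileup). With replicate numbers as a block, 0 member genes and 0 member regions passed, where the smallest exact permutation p is 0.125. No pairing by replicate number was seen. The check gave a correlation for each pair of groups over 36600 regions, and these stood at −0.06 to 0.06. These values describe the check for pairing and not how alike the libraries were. Depth was lower in every 60 h library. The 3 regions called at 0 h only, MYC 6, MYC 12 and NR4A2 6, kept their 4 calls when peaks were scaled to the shallowest depth, and they were weak peaks that equal numbers removed from 2 or more libraries.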
